A study of Mus musculus with 72 samples.

Results

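The microRNAs (miRNAs) described here are those best known from oligodendrocytes, the cells that make myelin in the brain: miR-219a-5p, miR-219a-2-3p, miR-338-3p, miR-338-5p and miR-23a-3p/23b-3p. They were chosen by name as 5 of the 1927 rows of the deposited small RNA count tables, with miR-23a-3p and miR-23b-3p sharing 1 row. The study counted miRNAs in 3 brain regions of male mice, the right cerebellum, the left striatum and the left cortex. Within each region 4 groups were sequenced: Thap1+/- after nerve crush, Thap1+/- naive, wild type (WT) after nerve crush, and WT naive. Thap1+/- mice are heterozygous for Thap1, which encodes a DNA-binding protein and whose human counterpart is the gene of DYT6 dystonia, and the count columns call them DYT6KO. The crush was made to the right sciatic nerve, lasted 1 min and was done when mice were 12 weeks old. Tissue was taken 12 weeks after injury, and the labels give naive mice the same time. Counts of 71 libraries were available, 6 per group except 5 in cortex WT naive, whose other library was not analysed here. Thap1 mRNA was not measured, so these data hold no check of the genotype labels.

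In the mouse brain, miR-219 and miR-338 are induced as oligodendrocyte progenitors leave the cell cycle and differentiate, and both repress genes that keep the progenitors dividing. miR-23a represses lamin B1, a nuclear envelope protein whose excess impairs myelin, and it promotes the differentiation of oligodendrocytes in culture. miR-23a and miR-23b are, unlike the other members, also abundant in astrocytes and blood vessels. Each miRNA is cut from a hairpin that can yield a mature strand from its 5′ arm (5p) and from its 3′ arm (3p). The seed, bases 2 to 8, pairs with target mRNAs. Oligodendrocyte mRNAs were not measured in these samples, so the lineage of the members is background knowledge and was not checked here. The 5 neuron miRNAs listed for comparison, miR-124-3p among them, were above 0 in all 71 libraries.

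The mature strands are shown because the members share a lineage and not a target set. Of the members, 4 had a mature entry in the RefSeq table for GRCm38.p6, and the seed stands in capitals. All 4 seeds differed, and each was carried by that 1 mature entry in the table. The table has no entry for miR-219a-2-3p or miR-23b-3p, so sharing with these was not covered. The Mir23b hairpin below holds the miR-23a-3p seed.
mmu-miR-219a-5p: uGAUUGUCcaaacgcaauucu
mmu-miR-338-3p: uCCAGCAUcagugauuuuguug
mmu-miR-338-5p: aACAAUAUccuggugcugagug
mmu-miR-23a-3p: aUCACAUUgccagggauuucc

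miR-219a-5p can come from either of 2 hairpins, Mir219a-1 and Mir219a-2, and its counts cannot be assigned to one of them. miR-219a-2-3p comes from Mir219a-2 alone. Both hairpins are shown with the identical 21 bases of miR-219a-5p in capitals.
Mir219a-1: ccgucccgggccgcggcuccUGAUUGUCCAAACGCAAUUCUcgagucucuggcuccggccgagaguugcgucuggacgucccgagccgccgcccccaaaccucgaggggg
Mir219a-2: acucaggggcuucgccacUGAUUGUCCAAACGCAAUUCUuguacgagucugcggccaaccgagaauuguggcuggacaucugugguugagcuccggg

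Mir338 carries both miR-338 members, miR-338-5p first and miR-338-3p after the loop, in capitals. Mir23a and Mir23b are shown because the tables count their 3p strands as 1 row, and the run of 18 bases that both share is in capitals.
Mir338: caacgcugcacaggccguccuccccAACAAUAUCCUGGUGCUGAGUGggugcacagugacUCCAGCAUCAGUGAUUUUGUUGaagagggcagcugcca
Mir23a: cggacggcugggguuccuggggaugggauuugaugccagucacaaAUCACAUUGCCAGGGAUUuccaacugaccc
Mir23b: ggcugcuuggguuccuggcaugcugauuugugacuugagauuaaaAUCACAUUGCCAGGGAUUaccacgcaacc

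In GRCm38.p6, Mir219a-2 lies on the minus strand at chr2:29845631-29845727, where Mir219b overlaps it on the plus strand over 65 bases. Mir219a-1 lies on the minus strand at chr17:34024983-34025092 in an exon of the long noncoding RNA gene Gm26940, with Mir219c on the opposite strand over 60 bases. Mir338 lies on the minus strand at chr11:120014765-120014862, in an intron of Aatk on the same strand, and Mir3065 covers 87 of its bases on the plus strand. Mir23a, at chr8:84208518-84208592 on the plus strand, overlaps no annotated gene and has Mir27a 79 bases and Mir24-2 222 bases away. Mir23b, at chr13:63300484-63300557 on the plus strand, lies in an intron of 2010111I01Rik, opposite Fancc, with Mir27b 154 bases and Mir24-1 650 bases away.

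The members spanned more than 3 orders of magnitude in raw counts. miR-338-3p averaged 38204.5 counts per library in cerebellum, 39875.6 in striatum and 21729.1 in cortex. miR-23a-3p/23b-3p averaged 2770 counts in cerebellum, 3505 in striatum and 4949 in cortex, and miR-219a-2-3p averaged 1312, 1419 and 624 counts in the same regions. The other arm of the miR-338 hairpin, miR-338-5p, averaged 75.3 counts in cerebellum, 91.5 in striatum and 61.7 in cortex.

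miR-219a-5p, the strand by which the family is usually known, had the fewest counts of the 5 rows, on average 15.5 per library in cerebellum, 19.9 in striatum and 10.8 in cortex. It was above 0 in 60 of 71 libraries. It was at 0 in 2 of 24 cerebellum, 2 of 24 striatum and 7 of 23 cortex libraries, each of which allows up to 3 counts, a limit that covers counting error only. In comparison, 73 of the 100 miRNAs with a mean of 10 to 25 counts in cortex were at 0 in no cortex library, and 3 were at 0 in 7 or more. The lowest count above 0 in the tables was 2, and no library held a count of 1.

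All 5 rows passed the filter on low counts in each of the 7 fits used for the tests. Library totals ran between 7479448 and 12589140 counts. Levels are given as CPM, counts scaled to a common library size, after TMM (trimmed mean of M-values) adjusted each library's total so that most miRNAs keep a common level. Mature miRNAs are of nearly equal length, so CPM was not divided by length. The let-7 family with miR-98 took 58.4 to 68.5% of the counts in the cerebellum groups, 44.5 to 47.2% in striatum and 45.9 to 48.8% in cortex, except 55.2% in cortex WT naive. Cerebellar RNA was extracted with a mini kit and that of the other regions with a micro kit, so region and kit cannot be told apart for cerebellum. Labels call the samples biological replicates and link no libraries to an animal. In bulk tissue, fewer cells of a type and less RNA per cell cannot be told apart.

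The order of cerebellum and striatum depended on this scaling for several members, as given with the tests.

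**Figure D1:**
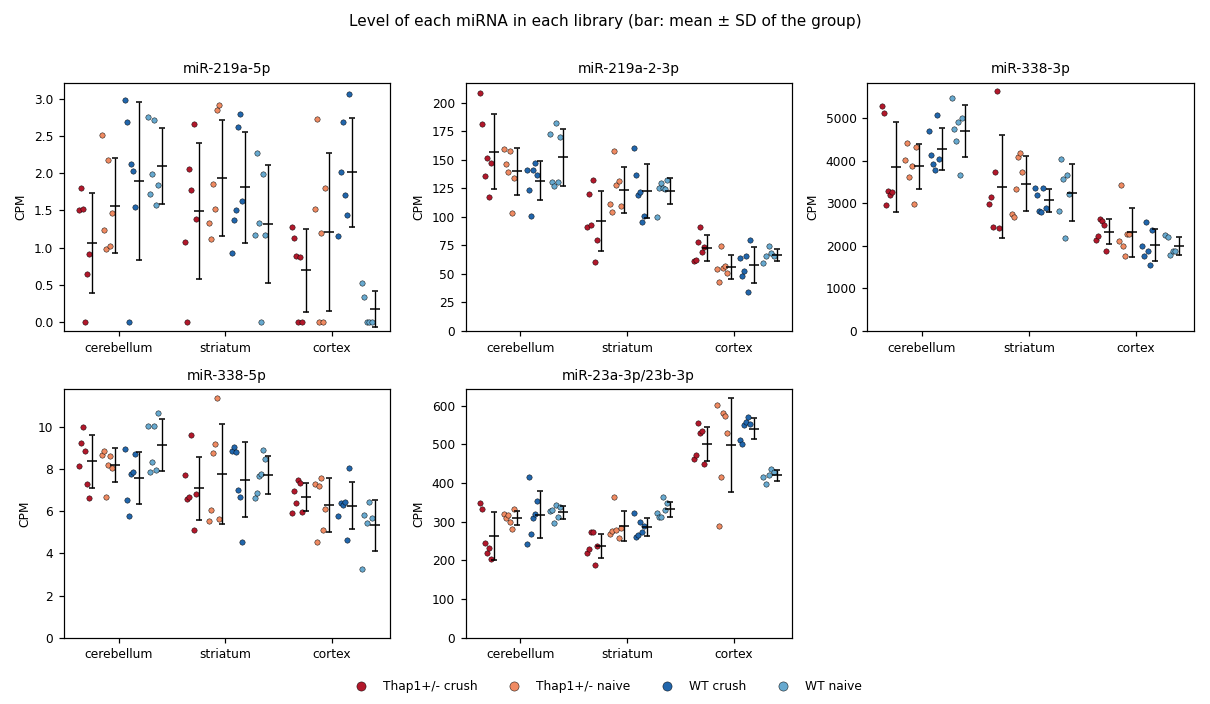
TMM-scaled CPM of each member in each library, by region and group, with bars for group mean ± SD. miR-338-3p, miR-219a-2-3p and miR-338-5p had their lowest regional means in cortex, where miR-23a-3p/23b-3p had its highest mean on this scale, and the miR-219a-5p libraries scatter down to 0.

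miR-338-3p, the main product of the Mir338 hairpin, was the most abundant member in every group. Its regional mean was 4178 ± 754 CPM in cerebellum (SD, n = 24), 3294 ± 736 CPM in striatum (n = 24) and 2175 ± 404 CPM in cortex (n = 23). In WT naive mice the lowest, median and highest libraries were 3670, 4823 and 5477 CPM in cerebellum, 2180, 3391 and 4040 CPM in striatum, and 1787, 1891 and 2252 CPM in cortex. The cerebellum libraries of that group lay above those of cortex without overlap, as for 28.5% of all miRNAs tested, whereas striatum overlapped both. Ordered by mean, the 12 groups ran from cerebellum WT naive at 4710 ± 610 CPM down to cortex WT naive at 2005 ± 212 CPM. Of the 11 steps between neighbours in that order, 1 exceeded the pooled SD of its groups, between striatum WT crush at 3074 ± 271 CPM and cortex Thap1+/- crush at 2328 ± 292 CPM.

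miR-219a-2-3p, the 3′ strand of Mir219a-2, followed the same regional order on the TMM scale with a wider spread between regions. It averaged 145 ± 25.2 CPM in cerebellum, 116 ± 22.9 CPM in striatum and 62.9 ± 12.9 CPM in cortex. In WT naive mice its lowest, median and highest libraries were 127.0, 150.4 and 182.0 CPM in cerebellum, 100.1, 125.3 and 132.1 CPM in striatum, and 59.4, 65.6 and 74.0 CPM in cortex. All 12 libraries of cerebellum and striatum in that group lay above all 5 of cortex. Of all miRNAs tested, 28.5% were likewise higher without overlap in cerebellum than in cortex, and 24.5% in striatum. The order of groups held 2 steps beyond the pooled SD, the one from striatum WT crush (122.3 ± 23.6 CPM) to striatum Thap1+/- crush (96.2 ± 26.4 CPM) and the next, to cortex Thap1+/- crush (72.4 ± 11.3 CPM).

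miR-338-5p, the minor strand of its hairpin, averaged 8.32 ± 1.21 CPM in cerebellum, 7.52 ± 1.63 CPM in striatum and 6.18 ± 1.12 CPM in cortex. In WT naive mice it ranged from 7.86 to 10.7 CPM in cerebellum, 6.62 to 8.92 CPM in striatum and 3.26 to 6.42 CPM in cortex. Cortex lay below both other regions in that group without overlap, as for 28.5% of all miRNAs against cerebellum and 24.5% against striatum. None of the 11 steps in its order of groups exceeded the pooled SD.

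miR-23a-3p/23b-3p, unlike the other rows, had its highest regional mean in cortex. It averaged 304 ± 48.8 CPM in cerebellum, 286 ± 43.9 CPM in striatum and 493 ± 77.0 CPM in cortex. In WT naive mice the lowest, median and highest libraries were 295, 328 and 344 CPM in cerebellum and 313, 327 and 363 in striatum. In cortex they were 397, 420 and 436 CPM, above both other regions without overlap. Of all miRNAs tested, 21.9% were likewise lower without overlap in cerebellum than in cortex, and 15.9% in striatum. In Thap1+/- naive mice the row overlapped, at 289 to 603 CPM in cortex, 281 to 333 in cerebellum and 259 to 365 in striatum. In its order of groups 2 steps exceeded the pooled SD, cortex WT crush (541 ± 27.8 CPM) to cortex Thap1+/- crush (502 ± 44.6 CPM), and cortex WT naive (420 ± 14.9 CPM) to striatum WT naive (332 ± 20.2 CPM).

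Group means of miR-219a-5p lay between 0.172 ± 0.245 CPM in cortex WT naive (n = 5) and 2.10 ± 0.512 CPM in cerebellum WT naive (n = 6). Apart from cortex WT naive, the lowest group was cortex Thap1+/- crush at 0.694 ± 0.558 CPM, and the step between these 2 groups was the only one of 11 beyond the pooled SD. The raw counts in cortex were 9, 10, 0, 0, 11 and 10 in Thap1+/- crush libraries, 27, 0, 13, 0, 21 and 16 in Thap1+/- naive, 14, 30, 11, 17, 23 and 29 in WT crush, and 0, 0, 0, 5 and 3 in WT naive. The WT naive counts lay below all 6 WT crush counts. In CPM, 14.2% of all miRNAs tested were likewise higher after crush without overlap. In striatum WT naive the counts were 0, 29, 16, 16, 31 and 17, and in cerebellum WT naive they were 24, 15, 20, 28, 18 and 20.

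To examine how the members differ between regions, each of the 4 conditions was fitted over its 3 regions with edgeR's quasi-likelihood test, with Benjamini-Hochberg adjustment over all miRNAs tested and a threshold of 0.05. Libraries of the 3 regions were treated as independent in these fits, although column names of different regions share numbers. In WT naive mice all 5 rows were called in cerebellum against cortex, 4 higher and 1 lower, where 68.6% of all 579 miRNAs tested were called (37.3% higher and 31.3% lower). miR-219a-2-3p was higher by 1.17 ± 0.106 on the log2 scale (SE, adjusted p = 1.09e-08) and miR-338-3p by 1.22 ± 0.138 (adjusted p = 2.53e-07). miR-338-5p was higher by 0.76 ± 0.155 (adjusted p = 0.000261), miR-219a-5p by 3.54 ± 0.782 (adjusted p = 0.000573), and miR-23a-3p/23b-3p was lower, at -0.39 ± 0.0603 (adjusted p = 1.42e-05). The WT naive libraries of the 2 regions did not overlap for any of the 5 rows. Without overlap, 28.5% of all tested miRNAs were higher and 21.9% lower, so differences of this kind were common between these regions.

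Striatum against cortex in WT naive mice gave the same directions, 4 higher and 1 lower, on a background of 54.6% called (35.8% higher and 18.8% lower). miR-219a-2-3p was higher by 0.90 ± 0.105 (adjusted p = 7.9e-07), miR-338-3p by 0.73 ± 0.137 (adjusted p = 0.000176), miR-338-5p by 0.55 ± 0.154 (adjusted p = 0.00516) and miR-219a-5p by 2.93 ± 0.795 (adjusted p = 0.00418). miR-23a-3p/23b-3p was lower at -0.32 ± 0.0603 (adjusted p = 0.000174), but it lay at 0.01 when libraries were scaled by total count alone. Relative to the median of all tested miRNAs it was at -0.51 under either scaling. A change of scaling moves all miRNAs nearly alike, so this value could hardly differ and is no separate check. miR-219a-2-3p and miR-338-5p were higher and miR-23a-3p/23b-3p was lower without overlap of libraries, as were 24.5% (higher) and 15.9% (lower) of all miRNAs. The median log2 difference of the 5 rows was 0.73, beside 0.19 over all miRNAs tested, and in cerebellum against cortex it was 1.17, beside 0.06.

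**Figure D2:**
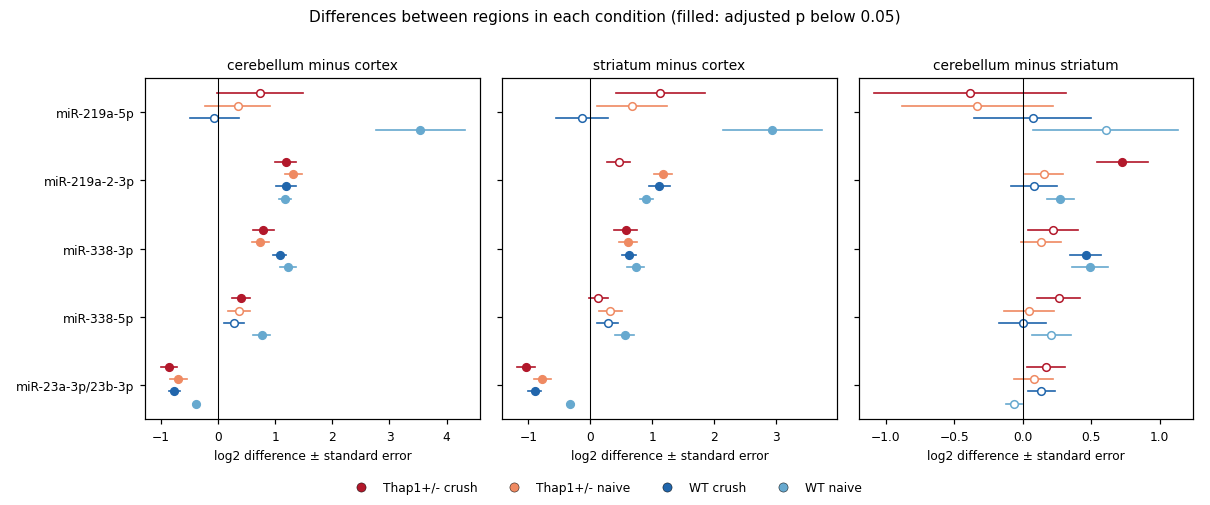
Log2 difference ± standard error of each member between regions in the 4 conditions, with filled points where the adjusted p was under 0.05. miR-219a-2-3p and miR-338-3p lie right of 0 and miR-23a-3p/23b-3p left of 0 in both comparisons with cortex, the last except in WT naive striatum under total count scaling, where it was 0.01. In cerebellum against striatum the differences of 4 members change direction in at least 1 condition when scaled by total count alone.

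The regional differences of miR-338-3p and miR-23a-3p/23b-3p were called against cortex in all 4 conditions, for both other regions. In cerebellum against cortex, miR-338-3p was higher by 0.79 in Thap1+/- crush, 0.74 in Thap1+/- naive and 1.08 in WT crush (adjusted p = 0.00101, 0.000225 and 8.42e-08). miR-219a-2-3p was higher by 1.18, 1.32 and 1.20 in these conditions (adjusted p = 1.68e-05, 1e-07 and 5.28e-06), and miR-23a-3p/23b-3p was lower at -0.87, -0.69 and -0.76 (adjusted p = 2.07e-05, 0.000286 and 1.75e-06). The share of all miRNAs called was 60.9% in Thap1+/- crush (30.8% higher, 30.1% lower), 66.2% in Thap1+/- naive (30.6% higher, 35.6% lower) and 69.5% in WT crush (33.9% higher, 35.6% lower). Libraries of the 2 regions did not overlap for miR-219a-2-3p, miR-338-3p and miR-23a-3p/23b-3p in Thap1+/- crush and WT crush, and for miR-219a-2-3p alone in Thap1+/- naive. Of all miRNAs, 21.1% in Thap1+/- crush, 23.4% in Thap1+/- naive and 24.7% in WT crush were higher without overlap, and 24.3% in Thap1+/- crush and 25.1% in WT crush were lower without overlap. Under total count scaling, Thap1+/- crush miR-219a-2-3p and miR-338-3p and Thap1+/- naive miR-338-3p kept their direction but were no longer called (0.50, 0.12 and 0.34, adjusted p = 0.0627, 0.654 and 0.0588).

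In striatum against cortex, miR-23a-3p/23b-3p was lower at -1.04 in Thap1+/- crush (adjusted p = 7.86e-06), at -0.775 in Thap1+/- naive (adjusted p = 0.000188) and at -0.90 in WT crush (adjusted p = 5.12e-07). miR-338-3p was higher by 0.57, 0.60 and 0.62 (adjusted p = 0.0207, 0.00236 and 0.000135). The Thap1+/- crush value of miR-338-3p rested on single libraries. Its log2 difference was 0.33 without STR_DYT6KO_crush_8 (adjusted p = 0.0868), 0.53 without CX_DYT6KO_crush_86 (adjusted p = 0.0527), 0.50 without CX_DYT6KO_crush_117 (adjusted p = 0.0626) and 0.51 without CX_DYT6KO_crush_133 (adjusted p = 0.0576). miR-219a-2-3p was higher by 1.17 in Thap1+/- naive (adjusted p = 1.31e-06) and 1.11 in WT crush (adjusted p = 2.75e-05). In Thap1+/- crush it was at 0.45 (adjusted p = 0.0670), and it was called without CX_DYT6KO_crush_47 (0.52, adjusted p = 0.0424) or without STR_DYT6KO_crush_8 (0.50, adjusted p = 0.0119). The background was 34.2% in Thap1+/- crush (19.1% higher, 15.1% lower), 44.5% in Thap1+/- naive (22.7% higher, 21.8% lower) and 47.5% in WT crush (23.6% higher, 23.8% lower).

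Striatum and cortex libraries did not overlap for miR-23a-3p/23b-3p in Thap1+/- crush, where 11% of all miRNAs were lower without overlap. miR-219a-2-3p did not overlap in Thap1+/- naive, where 12.7% were higher without overlap. In WT crush, miR-219a-2-3p and miR-338-3p were higher without overlap, as were 17.0% of all miRNAs, and miR-23a-3p/23b-3p was lower without overlap, as were 14.3%.

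The 2 rows with the fewest counts were called less evenly. miR-219a-5p was not called between regions in any condition other than WT naive, the condition whose cortex libraries held 8 counts of it in all. Its cerebellum against cortex values were 0.74 in Thap1+/- crush (adjusted p = 0.413), 0.34 in Thap1+/- naive and -0.06 in WT crush, the last 2 also not called. miR-338-5p was called outside WT naive mice in 1 comparison, cerebellum against cortex in Thap1+/- crush, at 0.39 (adjusted p = 0.0365). That call was lost when any 1 of 13 libraries was left out, with values down to 0.28 (adjusted p = 0.123, without CB_DYT6KO_crush_46), and it turned to -0.30 under total count scaling. Whether any regional difference depended on condition was not tested for these rows.

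Between cerebellum and striatum, fewer rows were called on the TMM scale than against cortex in each condition, and under total count scaling the calls changed. In WT naive mice 2 of the 5 rows were called on a background of 68.4% (31.1% higher), miR-338-3p at 0.49 ± 0.129 (adjusted p = 0.00223) and miR-219a-2-3p at 0.27 ± 0.0981 (adjusted p = 0.0190). The miR-219a-2-3p value fell to 0.20 without CB_wt_naive_118 (adjusted p = 0.0864), and was 0.23 without STR_wt_naive_118, CB_wt_naive_31 or CB_wt_naive_96 (adjusted p = 0.0510, 0.0550 and 0.0525). Under total count scaling miR-338-3p was at 0.04 and miR-219a-2-3p at -0.19. Relative to the median of all tested miRNAs, which total count scaling moved, they lay at 0.59 and 0.36. Values relative to that median hardly change with scaling, so they are no separate check. In Thap1+/- crush mice miR-219a-2-3p alone was called, at 0.73 (adjusted p = 0.00201, background 58.5%, 27.9% higher), and in WT crush mice miR-338-3p alone, at 0.46 (adjusted p = 0.00132, background 69.9%, 33.6% higher), where 26.4% of all miRNAs were, like it, higher without overlap. Both turned negative under total count scaling, at -0.05 and -0.16. In Thap1+/- naive mice edgeR and DESeq2 called 0 of 5 rows, none had an unadjusted p under 0.05 in edgeR, and the background was 65.1%. Under total count scaling 4 rows were called there, all lower: miR-219a-2-3p (-0.46), miR-338-3p (-0.49), miR-338-5p (-0.58) and miR-23a-3p/23b-3p (-0.54). The 65.1% is for TMM, and no share of all miRNAs called under total count scaling is given here. Between regions that scaling moved the median of all miRNAs by -0.753 to 0.330, so these 4 calls are not read as a result about the members.

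Lists of miRNAs known from other brain cells also moved between regions. The summed level of the choroid plexus list had group means of 556 to 714 CPM in cerebellum, 207 to 235 CPM in striatum and 94.0 to 114 CPM in cortex. The neuron list ran from 40525 to 47414 CPM in cerebellum, 49987 to 53454 CPM in striatum and 83090 to 90599 CPM in cortex, and the vessel list from 32125 to 33585, 23957 to 26304 and 32550 to 39357 CPM. miR-211-5p of the choroid plexus list was above 0 in 17 of 71 libraries, and its other 3 miRNAs were tested. A sum can hide opposite moves. In WT crush striatum against cortex, 1 of these 3 was called higher and 1 lower, where 47.5% of all miRNAs were called. In WT naive cerebellum against cortex, 1 of 5 neuron miRNAs was called higher and 4 lower, where 68.6% were called. The neuron mean of 47414 CPM, in cerebellum Thap1+/- crush, included 1 library at 88916 CPM, and the group median was 39247 CPM. The part of these lists, and of the let-7 share, in the members' regional differences was not tested.

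Whether nerve crush or Thap1 genotype changed the members was examined within each region, in 1 fit of its 4 groups. The rows were called in cortex only. In cortex WT mice, crush against naive, 2 of the 5 rows were called, both higher, on a background of 35.0% called (21.1% higher). The median log2 difference of the 5 rows was 0.21, beside 0.06 over all miRNAs tested. miR-219a-5p was higher by 3.46 ± 0.980 on the log2 scale (adjusted p = 0.00938), from 124 counts summed over the 6 crush libraries and 8 over the 5 naive libraries. The 2 groups did not overlap, and 14.2% of all tested miRNAs were likewise higher after crush without overlap. miR-219a-5p was called in all 29 alternative settings that tested it, with log2 values of 3.14 to 4.45 and adjusted p of 0.000924 to 0.0278. The authors' deposited table gives 0.394 and an adjusted p of 0.04065 for this row. That log2 value is far smaller than 3.46 and the reason was not examined, so the 2 sizes may not be on the same measure.

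miR-23a-3p/23b-3p was higher after crush in cortex WT mice by 0.33 ± 0.130 (adjusted p = 0.0479). The crush libraries held 571, 553, 511, 557, 501 and 550 CPM, and the naive libraries 420, 436, 429, 416 and 397 CPM. Every crush library was above every naive library, as for 14.2% of all miRNAs tested. The call sat at the threshold and was lost in 19 of 30 alternative settings. Those were RLE scaling (0.28, adjusted p = 0.0814), no filter (adjusted p = 0.0559), a stricter filter (adjusted p = 0.0603), DESeq2 (adjusted p = 0.0622), and the omission of any 1 of 15 of the 23 cortex libraries, among them all 5 of WT naive (0.30 to 0.36, adjusted p up to 0.116). The authors' deposited table gives 0.2559 with an adjusted p of 0.07725. The let-7 share differed between the same groups, 45.9% in crush and 55.2% in naive, and its part in these calls was not tested beyond leaving let-7 out before scaling, which kept both.

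The remaining rows did not pass in cortex WT mice. miR-219a-2-3p had 34.5, 58.5 and 79.7 CPM as lowest, median and highest after crush, against 59.4, 65.6 and 74.0 CPM in naive mice, a difference of -0.23 (adjusted p = 0.298). In Thap1+/- mice its cortex values were 60.9, 71.4 and 91.1 CPM after crush, against 42.8, 54.6 and 74.5 CPM in naive mice. This difference of 0.41 had an unadjusted p of 0.0182 and an adjusted p of 0.371 in edgeR's quasi-likelihood test, where 0 of 5 rows and 0.729% of all miRNAs were called. DESeq2 called 0 rows there as well, and 1 row had an unadjusted p under 0.05.

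The crush effect of miR-219a-5p in cortex differed between genotypes, with a difference of -4.26 ± 1.25 (Thap1+/- minus WT, adjusted p = 0.0276). For this difference 13.5% of all miRNAs were called, and 7.83% of all were called negative. In Thap1+/- mice crush gave -0.80, not called, beside 3.46 in WT mice. The call was lost without CX_DYT6KO_naive_76, CX_wt_naive_31, CX_wt_naive_67 or CX_wt_naive_96 (adjusted p up to 0.0563). The difference for miR-219a-2-3p had the other sign, 0.64 ± 0.230, and was not called (adjusted p = 0.0610). It was called without CX_DYT6KO_naive_18 (adjusted p = 0.0136) or without CX_wt_crush_3 (adjusted p = 0.0282).

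Between genotypes, 0 of 5 rows were called in cortex. In naive mice miR-219a-5p was at 2.71 ± 1.00 in Thap1+/- against WT (adjusted p = 0.0573, background 20.2%), and it was called under total count scaling (adjusted p = 0.0336), by DESeq2 (adjusted p = 0.0447) and in 5 of the settings that left out a library. After crush it was at -1.54 ± 0.75 (adjusted p = 0.580), where edgeR called 0.0% of all miRNAs and no member had an unadjusted p under 0.05. The WT naive cortex libraries, with 3 of 5 at 0, enter 3 of these comparisons alike: crush in WT, genotype in naive mice and the difference of crush effects.

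**Figure D3:**
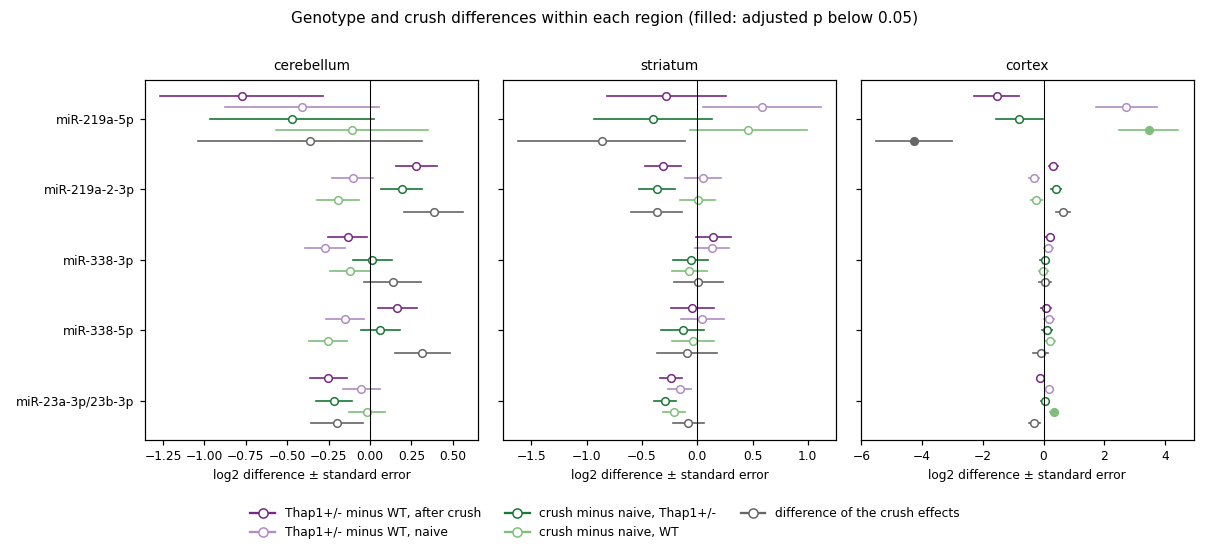
Log2 difference ± standard error of each member in the 5 comparisons within each region, with filled points where the adjusted p was under 0.05 and an axis range of its own in each panel. Filled points occur in cortex alone: miR-219a-5p (3.46) and miR-23a-3p/23b-3p (0.33) for crush in WT, and miR-219a-5p (-4.26) for the difference of crush effects.

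In striatum, edgeR and DESeq2 called 0 of 5 rows in each of the 5 comparisons. The number of rows with an unadjusted p under 0.05 was 1 for genotype after crush, 1 for crush in WT, 2 for crush in Thap1+/- and 0 for the other 2 comparisons, and the share of all miRNAs called was 0.174% for crush in WT and 0.0% elsewhere. The rows concerned were mostly miR-23a-3p/23b-3p. It averaged 237 ± 32.2 CPM in Thap1+/- crush, 288 ± 38.5 CPM in Thap1+/- naive, 285 ± 23.1 CPM in WT crush and 332 ± 20.2 CPM in WT naive. Its crush difference was -0.29 ± 0.10 in Thap1+/- (unadjusted p = 0.00827, adjusted p = 0.284) and -0.21 in WT (unadjusted p = 0.0467), and its genotype difference after crush was -0.24 (unadjusted p = 0.0264). The other row was miR-219a-2-3p, at -0.36 for crush in Thap1+/- (unadjusted p = 0.0362), with 96.2 ± 26.4 CPM after crush and 123.5 ± 19.8 CPM in naive mice. In cortex WT mice the crush difference of miR-23a-3p/23b-3p was positive (0.33), and no test compared the regions.

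In cerebellum, likewise, 0 of 5 rows were called by edgeR or DESeq2 in any of the 5 comparisons. Unadjusted p under 0.05 occurred for 1 row for genotype in naive mice, 2 for genotype after crush, 1 for crush in WT, 0 for crush in Thap1+/- and 1 for the difference. Genotype after crush had a background of 13.4%. There miR-219a-2-3p averaged 157.0 ± 32.9 CPM in Thap1+/- and 131.6 ± 17.2 CPM in WT, a difference of 0.28 (unadjusted p = 0.0346, adjusted p = 0.138). miR-23a-3p/23b-3p averaged 263 ± 61.7 CPM in Thap1+/- and 318 ± 61.1 CPM in WT, a difference of -0.25 (unadjusted p = 0.0323, adjusted p = 0.133), and it was called without CB_DYT6KO_crush_117 (-0.32, adjusted p = 0.0392). The other 3 were miR-338-3p for genotype in naive mice (-0.27, unadjusted p = 0.0332, adjusted p = 0.497), miR-338-5p for crush in WT (-0.25, unadjusted p = 0.0388, adjusted p = 0.586) and miR-219a-2-3p for the difference (0.38, unadjusted p = 0.0392, adjusted p = 0.445). The background of crush in Thap1+/- was 5.25%, and that of the other 3 comparisons was 0.0%.

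The members' hairpin and cluster partners made a list of 17 names in 16 rows, of which 4 had counts enough to be tested. miR-24-3p, the third miRNA of both miR-23 clusters, was listed at 0 in all 71 libraries, as were miR-219b-5p, miR-219c-5p and miR-3065-3p from the opposite strands of the members' hairpins. miR-219b-3p was above 0 in 9 libraries, miR-219c-3p in 7 and miR-3065-5p in 27. miR-219a-1-3p, the 3′ strand of Mir219a-1, was above 0 in all 71 libraries with means of 27.8 counts in cerebellum, 31.7 in striatum and 21.4 in cortex. These means were above those of miR-219a-5p in each region.

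The miR-27 strands, made from the same clusters as miR-23, did not follow it after crush. In cortex WT mice miR-27a-3p/27b-3p averaged 488 ± 49.2 CPM after crush and 474 ± 43.4 CPM in naive mice, a difference of 0.01 (adjusted p = 0.911). miR-27b-5p was lower after crush, 45.6 ± 2.59 CPM against 60.4 ± 4.28 CPM, by -0.43 ± 0.0885 (adjusted p = 0.00107), and miR-27a-5p was lower by -0.68 ± 0.208 (adjusted p = 0.0153). miR-219a-1-3p had 1.88 ± 0.432 CPM after crush and 2.58 ± 0.444 CPM in naive mice, at -0.48 (adjusted p = 0.0982). Of the 4 partners tested, 0 rose and 2 fell, and 2 of the 5 members rose. Over all miRNAs tested, 35.0% were called in this comparison and 21.1% were called higher. The smaller of the member rises sat at the threshold, as given above. With so few rows these counts do not set partners and members apart, and a difference between them was not tested. Between regions miR-27 went with miR-23: in WT naive mice miR-27a-3p/27b-3p was at -0.30 in cerebellum against cortex (adjusted p = 0.00312) and at -0.34 in striatum against cortex (adjusted p = 0.00185).

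A list of 10 other miRNAs with described roles in the oligodendrocyte lineage was examined beside the members, 9 of them tested in cortex. In cortex WT mice after crush 4 rose and 1 fell, with a median log2 difference over the 9 of 0.03, beside 35.0% called and a median of 0.06 over all miRNAs tested. miR-145a-5p, which in oligodendrocyte progenitors holds back myelin genes and is also abundant in vessel muscle, averaged 61.2 ± 12.6 CPM after crush and 33.6 ± 4.86 CPM in naive mice (0.83, adjusted p = 0.00889). miR-146a-5p, known for dampening inflammatory signalling, averaged 48.0 ± 7.47 CPM and 30.1 ± 2.60 CPM (0.65, adjusted p = 0.00328). miR-32-5p rose by 1.27 (adjusted p = 0.0198) and miR-19b-3p, of the miR-17 to 92 cluster, by 1.05 (adjusted p = 0.0402). miR-125a-3p, which slows progenitor maturation, was lower at -0.38 (adjusted p = 0.0390).

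For the difference of crush effects in cortex, miR-32-5p (-2.07) and miR-146a-5p (-0.66) were called negative and miR-125a-3p (0.60) positive. Of all miRNAs tested, 13.5% were called there. In striatum 0 of 9 were called in any of the 5 comparisons within the region, where at most 0.174% of all miRNAs were called. In cerebellum, Thap1+/- against WT after crush, miR-125a-3p was higher by 0.54, and miR-145a-5p (-0.65) and miR-9-5p (-0.44) were lower, of 10 tested. The share of all miRNAs called was 13.4%.

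miRNAs known from other cell types moved in cortex WT mice after crush as well, where 35.0% of all miRNAs tested were called (21.1% higher). Of 4 astrocyte miRNAs, 3 rose (miR-29b-3p by 0.58, miR-29c-3p by 0.54 and miR-29a-3p by 0.43) and 1 fell (miR-26a-5p, at -0.31). Of 5 microglia miRNAs, miR-142a-5p rose by 0.55 and miR-155-5p fell, at -0.56. The vessel list held 1 that rose, miR-145a-5p, and 1 that fell, miR-126a-3p at -0.38, of 4, and of 5 neuron miRNAs miR-218-5p rose by 0.45 and miR-129-5p fell, at -0.52. None of 3 red cell and 3 choroid plexus miRNAs was called. The summed level was 339 ± 37.1 CPM after crush and 263 ± 16.8 CPM in naive mice for the microglia list, and 32550 ± 2432 CPM and 39357 ± 3388 CPM for the vessel list. Their part in the members' differences was not tested.

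To compare strands of a hairpin and the members with each other, log2 ratios of counts were taken within each library after 0.5 was added. Summed over the libraries of a group, miR-338-3p exceeded miR-338-5p by 475 to 562 times in cerebellum, 411 to 468 times in striatum and 322 to 375 times in cortex. miR-219a-2-3p exceeded miR-219a-5p in every group, by 28.2 times in cortex WT crush up to 395 times in cortex WT naive. In these libraries the 3′ strand of Mir219a-2 was thus counted far more often than the 5′ strand that both miR-219a hairpins share.

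In all, 45 exact two-sided permutation tests of 3 ratios were made, and 6 had an adjusted p under 0.05, each with miR-219a-5p in the ratio. In cortex WT mice the log2 ratio of miR-219a-5p to miR-219a-2-3p was higher after crush by 4.21 (-4.83 ± 0.543 after crush against -9.05 ± 1.85 in naive mice, exact p = 0.00433, adjusted p = 0.0390). This p is the smallest that 6 against 5 libraries allow. After crush the ratio was lower in Thap1+/- than in WT cortex by -2.70 (-7.53 ± 2.46 against -4.83 ± 0.543, exact p = 0.00649, adjusted p = 0.0487). The same 2 comparisons with miR-338-3p as denominator gave 3.96 and -2.55 (adjusted p = 0.0390 each). None of the 45 passed when 5 was added to the counts or when libraries at 0 were left out, and between 0 and 6 passed when 1 library was left out. The ratio of the miR-338 strands passed in 0 of its 15 tests, the closest being cerebellum against striatum in WT naive mice at 0.31 (exact permutation p = 0.0584, adjusted p = 0.351).

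**Figure D4:**
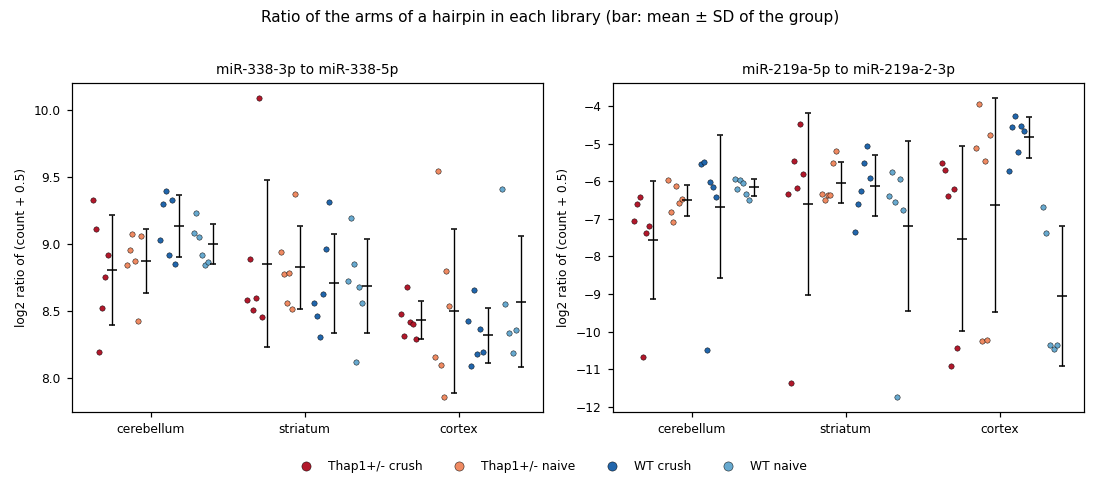
Log2 ratio of miR-338-3p to miR-338-5p and of miR-219a-5p to miR-219a-2-3p in each library (0.5 added to counts), with bars for group mean ± SD. The miR-338 ratio is highest in STR_DYT6KO_crush_8 (10.09), and the miR-219a ratio drops in each library with 0 counts of miR-219a-5p, and cortex WT naive averages -9.05.

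Whether members vary together from library to library was examined on deviations from the group means, so that differences between groups did not enter. For each region 10 pairs of members were correlated, 30 in all, with 100000 permutations within groups. In striatum miR-219a-2-3p went with miR-338-5p (n = 24, Pearson r = 0.723, permutation p = 0.00033, adjusted p = 0.0099, Spearman rho = 0.771, p = 0.00012, adjusted p = 0.0036). Without the 2 libraries farthest from the median of miR-219a-2-3p, r was 0.613. In cortex the same pair had r = 0.617 (n = 23, permutation p = 0.0013, adjusted p = 0.0132) and rho = 0.497 (p = 0.0194, adjusted p = 0.0970), with r = 0.435 without the 2 farthest libraries. In cerebellum it had r = 0.375, not past the threshold.

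In cerebellum miR-219a-2-3p went instead with miR-338-3p (n = 24, r = 0.674, permutation p = 0.00132, adjusted p = 0.0132, rho = 0.669, p = 0.0011, adjusted p = 0.0110), and r was 0.666 without the 2 farthest libraries. For that pair r was -0.085 in striatum and 0.134 in cortex. miR-338-3p and miR-338-5p, the strands of 1 hairpin, had r = 0.07 in cerebellum, 0.10 in striatum and -0.14 in cortex. As a scale for these values, the median r of miR-219a-2-3p with all other miRNAs was -0.016 in cerebellum, 0.085 in striatum and 0.031 in cortex. Under total count scaling 13 of 30 pairs had an adjusted p under 0.05, where 3 had under TMM. Differences between regions in r were not tested.

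**Figure D5:**
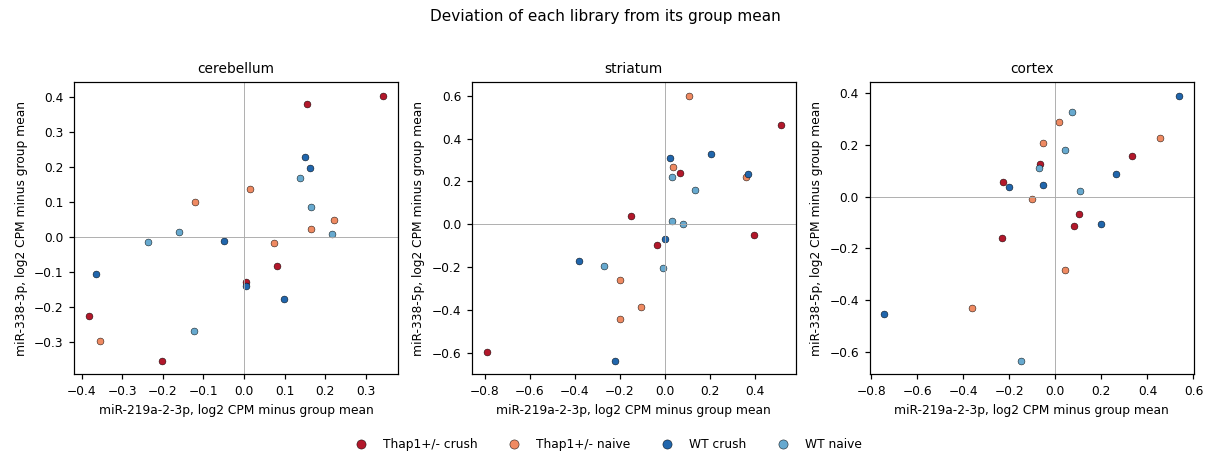
Deviation of each library from its group mean (log2 CPM) for miR-219a-2-3p against miR-338-3p in cerebellum and against miR-338-5p in striatum and cortex, 1 point per library. Points rise together in each panel, with r of 0.674, 0.723 and 0.617.

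The miR-219a strands varied inversely in cortex by rank, whereas Pearson r did not pass the threshold after adjustment. Their deviations had r = -0.431 (n = 23, permutation p = 0.0176, adjusted p = 0.105) and rho = -0.630 (p = 0.00034, adjusted p = 0.0051), with r = -0.348 without the 2 farthest libraries. The 7 cortex libraries at 0 for miR-219a-5p had a median of 73.9 CPM of miR-219a-2-3p (56.8 to 91.1 CPM), and the other 16 libraries had 60.1 CPM (34.5 to 79.7 CPM). In cerebellum the pair had r = 0.459 (adjusted p = 0.181) and rho = 0.527 (adjusted p = 0.0646).

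The miRNAs whose pattern over the 12 groups was most like each member's were found among 252 miRNAs with a mean of at least 10 CPM, by the root mean square difference of log2 group means after each miRNA's own mean was removed. For miR-338-3p they were miR-345-3p (0.083), miR-325-3p (0.152) and miR-301a-3p (0.153). For miR-219a-2-3p they were miR-378a-3p/378b/378c (0.190), miR-670-5p (0.218) and miR-345-3p (0.219). For miR-338-5p they were miR-301a-3p (0.102), miR-106b-5p (0.117) and miR-425-3p (0.120). Among the members, miR-219a-2-3p and miR-338-3p lay 0.214 apart, miR-338-3p and miR-338-5p 0.238, and miR-219a-2-3p and miR-23a-3p/23b-3p 0.863.

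For miR-23a-3p/23b-3p the nearest were miR-490-3p (0.172), miR-503-5p (0.190) and the cluster partner miR-27a-3p/27b-3p (0.218). For miR-219a-5p the nearest were farther off, miR-101a-3p/101b-3p/101c (0.367), miR-15b-5p (0.368) and miR-21a-5p (0.398). These distances describe group means and carry no test.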

How the data were processed

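Per the labels' protocols, small RNA libraries used the QIAseq miRNA UDI kit and 10 ng of input. The deposited tables hold raw counts per mature miRNA, with featureCounts 1.6.4 and R 4.1.0 named in the submitters' processing notes. Aligner, build and any collapsing of molecular identifiers: not given in the sources used here. The same tables hold the authors' log2 fold changes and adjusted p-values per the file headers, printed as deposited for 2 results. Their 284 per-sample normalized columns were not used. Columns matched labels by region, genotype and treatment, and libraries are replicates within a group.

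From the counts, levels were CPM on 1 TMM scaling over the 12 groups. Tests used edgeR 4.0.16 (limma 3.58.1, R 4.3.3) with filterByExpr, TMM, quasi-likelihood F tests and Benjamini-Hochberg adjustment over all miRNAs tested (cortex 549, striatum 575, cerebellum 552, and 535, 559, 554 and 579 in the fits of Thap1+/- crush, Thap1+/- naive, WT crush and WT naive). The standard error is the log2 difference divided by the root of F. Permutation tests used scipy 1.17.1 and Python 3.11.15, and figures matplotlib 3.10.9. Alternatives were RLE and total count scaling, other filters, DESeq2 1.42.0, omission of let-7, of the other groups or of 1 library, a block by column number, and other pseudocounts. On simulated data, edgeR recovered 45.5% of changes of 0.5 and 83.8% of changes of 1 (log2) for crush in WT cortex among 534 miRNAs. Named genes are the members, their hairpin and cluster partners, the fixed lists and the 3 nearest patterns. The members and lists were chosen with earlier results of these data known. The 2 most alike libraries of a group differed by more than sampling noise (chi-square per degree of freedom 11.9), so none was merged.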

Additional observations from a re-analysis of the deposited data

Results flagged for a closer look

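A library standing apart from the others of its group occurred in 14 of 96 sets of 5 or 6 values tested, and chance gives about 1 in 20. miR-219a-2-3p was 100.1 CPM in STR_wt_naive_118. miR-338-3p was 3442 CPM in CX_DYT6KO_naive_16, whose miR-23a-3p/23b-3p level was also the lowest of its group. miR-338-5p was 6.66 CPM in CB_DYT6KO_naive_18, and miR-23a-3p/23b-3p was 364.9 CPM in STR_DYT6KO_naive_18. The log2 ratio of miR-338-3p to miR-338-5p was 10.09 in STR_DYT6KO_crush_8, the library with the highest miR-338-3p level of all (5632 CPM), and 8.42 in CB_DYT6KO_naive_63.

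The other 8 sets concern 4 libraries at 0 counts of miR-219a-5p. The log2 ratio of miR-219a-5p to miR-219a-2-3p was -11.36 in STR_DYT6KO_crush_133, -11.74 in STR_wt_naive_31, -10.68 in CB_DYT6KO_crush_47 and -10.48 in CB_wt_crush_139. The ratio to miR-338-3p in the same libraries was -16.07, -15.86, -15.12 and -15.77.

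The crush effect of miR-219a-5p in cortex differed between Thap1+/- and WT mice by -4.26 (adjusted p = 0.0276 in edgeR's quasi-likelihood test), and rests on WT naive libraries with 0, 0, 0, 5 and 3 counts.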

How the results depend on the processing

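Total count scaling moved the median of all miRNAs by -0.753 to 0.330 between regions and by -0.311 to 0.303 within them (log2), and reversed 15 values. For cerebellum against striatum it gave, in the order miR-219a-2-3p, miR-23a-3p/23b-3p, miR-338-3p and miR-338-5p, -0.0542, -0.587, -0.516 and -0.529 in Thap1+/- crush and -0.464, -0.536, -0.486 and -0.581 in Thap1+/- naive. It gave -0.527, -0.5001 and -0.163 for the first 3 in WT crush, and -0.190 for miR-219a-2-3p in WT naive. It also gave 0.0113 for miR-23a-3p/23b-3p in striatum against cortex (WT naive), -0.301 for miR-338-5p in cerebellum against cortex (Thap1+/- crush), and r = 0.604 for miR-338-5p with miR-23a-3p/23b-3p in cerebellum. The stricter filter of 10 CPM turned miR-23a-3p/23b-3p in cerebellum against striatum (WT naive) to 0.136.

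The number of members called changed as follows. The share of all miRNAs called under each alternative setting is not given, so these counts describe the members alone. Genotype in naive cortex (0) gave 1 under total count scaling, 1 by DESeq2 and 0 to 2 when a library was left out. Crush in WT cortex (2) gave 1 under RLE, 1 without a filter, 0 under the stricter filter, 1 by DESeq2 and 1 to 2 without a library. The difference of crush effects in cortex (1) gave 2 under total count scaling, 0 under the stricter filter and 0 to 2 without a library. Genotype after crush in cerebellum (0) gave 0 to 1 without a library. In Thap1+/- crush, striatum against cortex (2) gave 1 to 3 without a library, cerebellum against cortex (4) gave 1 under total count scaling, and cerebellum against striatum (1) gave 3 under total count scaling and 1 to 2 without a library. For cerebellum against striatum, total count scaling gave 4 in Thap1+/- naive (0), 3 in WT crush (1) and 1 in WT naive (2), where no filter gave 1, and both WT conditions gave 1 to 2 without a library. The stricter filter, which drops members under 10 CPM, gave 3 in WT naive for both regions against cortex (5 each). Of the ratios (6), 0 passed without a pseudocount, 0 with 5 added and 0 to 6 without a library, and 13 pairs varied together (3) under total count scaling. The cause of these changes was not tested apart from the filter.

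Column names of different regions in the same condition mostly end in the same numbers, and no label says whether these mark animals. A block by this number kept 60 of 60 member results and 12 of 12 counts between regions. Of 70 same-numbered pairs, 47 correlated above 0.1 (lowest -0.335, median 0.174, highest 0.647). Pairs with different numbers were not examined, so whether a number marks an animal was not tested. Within a region no paired analysis was possible because the groups share no number. miR-219a-5p, at 0 in 11 of 71 libraries, had the fewest counts of the 5 rows.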
